A study of Mus musculus with 9 samples.

Results

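The genes described here are the fibroblast growth factor (FGF) ligands, their receptors and co-receptors, and the adapters, feedback inhibitors and target transcription factors of FGF signalling. They were chosen by gene symbol, not by any measured value: 21 genes named Fgf and a number, Fgfr1 to Fgfr4, Fgfrl1, the Sprouty and Spred genes, Dusp6, Il17rd, Etv1, Etv4, Etv5, Kl, Klb, Flrt2, Flrt3, Frs2 and Frs3. The rule found 43 of the 43644 genes in the deposited table. Spry3 was not analysed here. Of the 43, 42 passed the filter on low values and were tested, and the ligand Fgf20 was not. Fgf17 passed only through its MUT libraries, so it had to be higher there, and its calls below are a description. Fgf4, Fgf21, Fgf22 and Fgfr4 also passed only with their MUT libraries counted. The direction of their changes between MUT and the other groups is likewise a description.

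RNA came from the coronal suture of C57BL/6 mice aged 7 months; this seam of fibrous tissue joins the frontal bones of the skull to the parietal bones. The 9 libraries formed 3 groups of 3: wild-type mice without surgery (WT), Twist1+/- mice without surgery (MUT), and Twist1+/- mice that had suture regeneration surgery at 1 month of age (REG). The 2 Twist1+/- groups therefore shared the heterozygous allele and differed by the surgery, and no operated wild-type group was analysed here. The series' design text also speaks of 1 week after an induction, and the protocol of pairs of samples; the labels explain neither, and no pairing was assumed. Loss of 1 copy of Twist1, a basic helix-loop-helix transcription factor, causes coronal suture fusion in mice and Saethre-Chotzen syndrome in people. Whether the libraries are from separate mice is not labelled, so p-values measure the spread between libraries, which may be technical.

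FGF ligands bind receptor tyrosine kinases together with heparan sulfate, or with a Klotho co-receptor in the case of the endocrine ligands, and the receptors signal through the adapters Frs2 and Frs3 to the Ras-MAPK chain. That signal induces its own brakes, among them the Sproutys, the Spreds and Dusp6, and the ETS factors Etv4 and Etv5. In the skull, activating mutations of FGF receptors cause premature suture fusion, and the pathway governs the balance between growth and differentiation of bone-forming cells.

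Values are the deposited scaled gene values, an upper-quartile scaled number of estimated reads with no unit. A log2 change is the difference of group means of log2(value + 0.367), given with its standard error, and a gene was called at a limma p under 0.05 after Benjamini-Hochberg adjustment over the 29107 genes tested. The estimated depth ran from 16356391 to 20019712 reads over the WT libraries, from 2945636 to 10894209 over MUT and from 18276494 to 39377876 over REG. In MUT the reads were also spread over genes that a suture does not use. A background density, taken as the median over 1747 olfactory and vomeronasal receptor genes, would account for 7.86% to 23.2% of all reads in MUT, against 0.614% to 0.866% in WT and 0.509% to 0.849% in REG. The mitochondrial share of reads was 2.01% to 4.78% in MUT, against 9.96% to 13.5% in WT and 9.70% to 15.5% in REG. Markers moved too, beside 14.6% of all genes called lower and 20.5% higher: 8 of 10 osteoblast markers and 7 of 10 suture mesenchyme markers were lower in MUT than in WT, as were 3 of 10 endothelial, 2 of 8 chondrocyte and 4 of 10 macrophage and osteoclast markers. Higher in MUT were 7 of 14 neuron and astrocyte markers (1 was lower), 4 of 10 keratinocyte markers (1 was lower), 2 of 8 B cell markers and 1 of 10 skeletal muscle markers. When values were scaled to total reads, 5 of 10 osteoblast and 5 of 10 suture mesenchyme markers were lower (1 of the latter was higher). So was 1 of 10 macrophage and osteoclast markers, and 0 endothelial or chondrocyte markers were lower. Higher were then 6 of 8 B cell, 10 of 14 neuron and astrocyte, 6 of 10 keratinocyte, 1 of 10 skeletal muscle and 1 of 8 chondrocyte markers. Over all genes at that scaling, 2.89% were lower and 38.7% higher. In REG against MUT, 5 of 10 osteoblast, 6 of 10 macrophage and osteoclast, 4 of 10 endothelial and 3 of 8 chondrocyte markers were higher. So were 5 of 10 suture mesenchyme markers (2 were lower) and 5 of 10 skeletal muscle markers (1 was lower). Lower in REG were 6 of 14 neuron and astrocyte, 4 of 10 keratinocyte and 2 of 8 B cell markers. Over all genes, 11.8% were higher and 24.8% lower. Summed macrophage and osteoclast markers read 426 to 832 in WT, 140.2 to 318 in MUT and 901 to 1687 in REG, and summed skeletal muscle markers 31.3 to 144.5, 84.7 to 102.2 and 102.4 to 857. Summed suture mesenchyme markers read 799 to 2091 in WT, 35.6 to 61.4 in MUT and 796 to 1046 in REG, and summed B cell markers read 33.9 to 77.8, 328 to 1757 and 64.6 to 107. Summed neuron and astrocyte markers read 29.2 to 34.9 over WT, 68.3 to 125 over MUT and 25.8 to 43.8 over REG, and summed keratinocyte markers 9.25 to 13.6, 53.9 to 249 and 6.02 to 9.69. The part of these cell types in the changes below was not tested. Every marker in those lists had reads in at least 1 library of each group. In bulk tissue, fewer cells of a type and less RNA per cell cannot be told apart. Ranked over genes, REG replicate 3 correlated with the WT libraries at a Spearman coefficient of 0.884 to 0.920, and with the other REG libraries at 0.734 and 0.794, while WT libraries correlated with each other at 0.896 to 0.914. The labelled gene Twist1 read 16.2, 23.3 and 23.1 in the WT libraries, 0.987, 8.08 and 0.548 in MUT, and 3.76, 9.19 and 12.2 in REG.

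The promoters below belong to the 5 genes whose call, in at least 1 comparison, held under every alternative processing that tested them. They are shown because Twist1 binds E-boxes, of the form CANNTG. Each run holds the 250 bases before the RefSeq transcription start (GRCm38.p6, which has the coordinates of mm10), 5′ to 3′ on the gene's strand, with E-boxes in capitals.

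Fgfr2, chr7:130266809-130267058, - strand: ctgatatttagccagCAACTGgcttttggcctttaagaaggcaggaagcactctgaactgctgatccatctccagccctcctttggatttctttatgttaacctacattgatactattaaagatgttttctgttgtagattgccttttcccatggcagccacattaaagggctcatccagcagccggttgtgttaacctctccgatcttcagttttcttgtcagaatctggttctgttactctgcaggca

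Spred1, chr2:117120821-117121070, + strand: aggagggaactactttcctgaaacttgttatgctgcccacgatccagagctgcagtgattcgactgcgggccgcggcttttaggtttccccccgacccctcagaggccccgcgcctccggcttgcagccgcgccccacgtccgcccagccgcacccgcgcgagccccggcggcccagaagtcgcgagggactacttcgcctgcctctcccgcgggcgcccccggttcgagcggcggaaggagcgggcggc

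Dusp6, chr10:99262981-99263230, + strand: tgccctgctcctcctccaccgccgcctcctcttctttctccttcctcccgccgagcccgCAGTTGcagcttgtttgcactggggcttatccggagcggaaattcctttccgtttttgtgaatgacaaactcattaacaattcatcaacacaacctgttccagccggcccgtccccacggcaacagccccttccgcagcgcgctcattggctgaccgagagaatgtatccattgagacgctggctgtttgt

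Fgf5, chr5:98253934-98254183, + strand: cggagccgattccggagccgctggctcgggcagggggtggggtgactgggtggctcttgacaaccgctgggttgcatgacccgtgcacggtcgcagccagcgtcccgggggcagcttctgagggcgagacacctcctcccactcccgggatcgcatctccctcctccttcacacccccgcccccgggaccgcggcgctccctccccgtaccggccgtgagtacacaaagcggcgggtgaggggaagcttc

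Fgf7, chr2:126034408-126034657, + strand: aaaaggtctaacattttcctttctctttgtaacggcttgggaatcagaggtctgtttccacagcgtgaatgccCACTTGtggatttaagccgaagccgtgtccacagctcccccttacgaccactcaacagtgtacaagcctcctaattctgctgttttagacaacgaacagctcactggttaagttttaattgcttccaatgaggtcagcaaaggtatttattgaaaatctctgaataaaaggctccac

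Fgfr2 held CAACTG, Dusp6 CAGTTG and Fgf7 CACTTG, and the windows of Spred1 and Fgf5 had no E-box. Searched on both strands, an E-box occurred in 25 of 43 windows of the 34 members with an entry in the table outside chromosome 18 (58.1%), against 66.2% of all 32851 windows of this length. The form CATATG was in 1 member window and CATCTG in 6, with shares over all windows of 3.46% and 14.4%. These are matches of letters, and no binding was measured here.

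In MUT against WT, 11 of the 42 tested genes were lower and 5 were higher. Over all genes tested, 14.6% were called lower and 20.5% higher, and of the members 26.2% and 11.9%. The 11 lower genes were Fgfr1, Fgfr2, Fgfr3, Fgfrl1, Flrt2, Frs2, Spred1, Spred2, Spry1, Dusp6 and Fgf8. The 5 higher genes were the ligands Fgf5, Fgf7, Fgf10 and Fgf17 and the feedback gene Il17rd. The median log2 change was −0.11 over the members and 0.18 over all genes.

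In REG against MUT, 8 members were higher and 8 lower, beside 11.8% and 24.8% of all genes. The higher genes were Fgfr1, Fgfr2, Fgfrl1, Flrt2, Spred1, Spry1, Dusp6 and Etv5, and the lower ones were Fgf4, Fgf5, Fgf6, Fgf7, Fgf10, Fgf16, Fgf17 and Il17rd. The median log2 change was −0.42 over the members and −0.36 over all genes. This comparison uses the same MUT libraries as MUT against WT, so the 2 sets of values are not independent. In REG against WT no member was called, nor was any other gene (0%), with limma. At an unadjusted p under 0.05 there were 8 members of 42 and 2755 of 29107 genes.

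**Figure D1:**
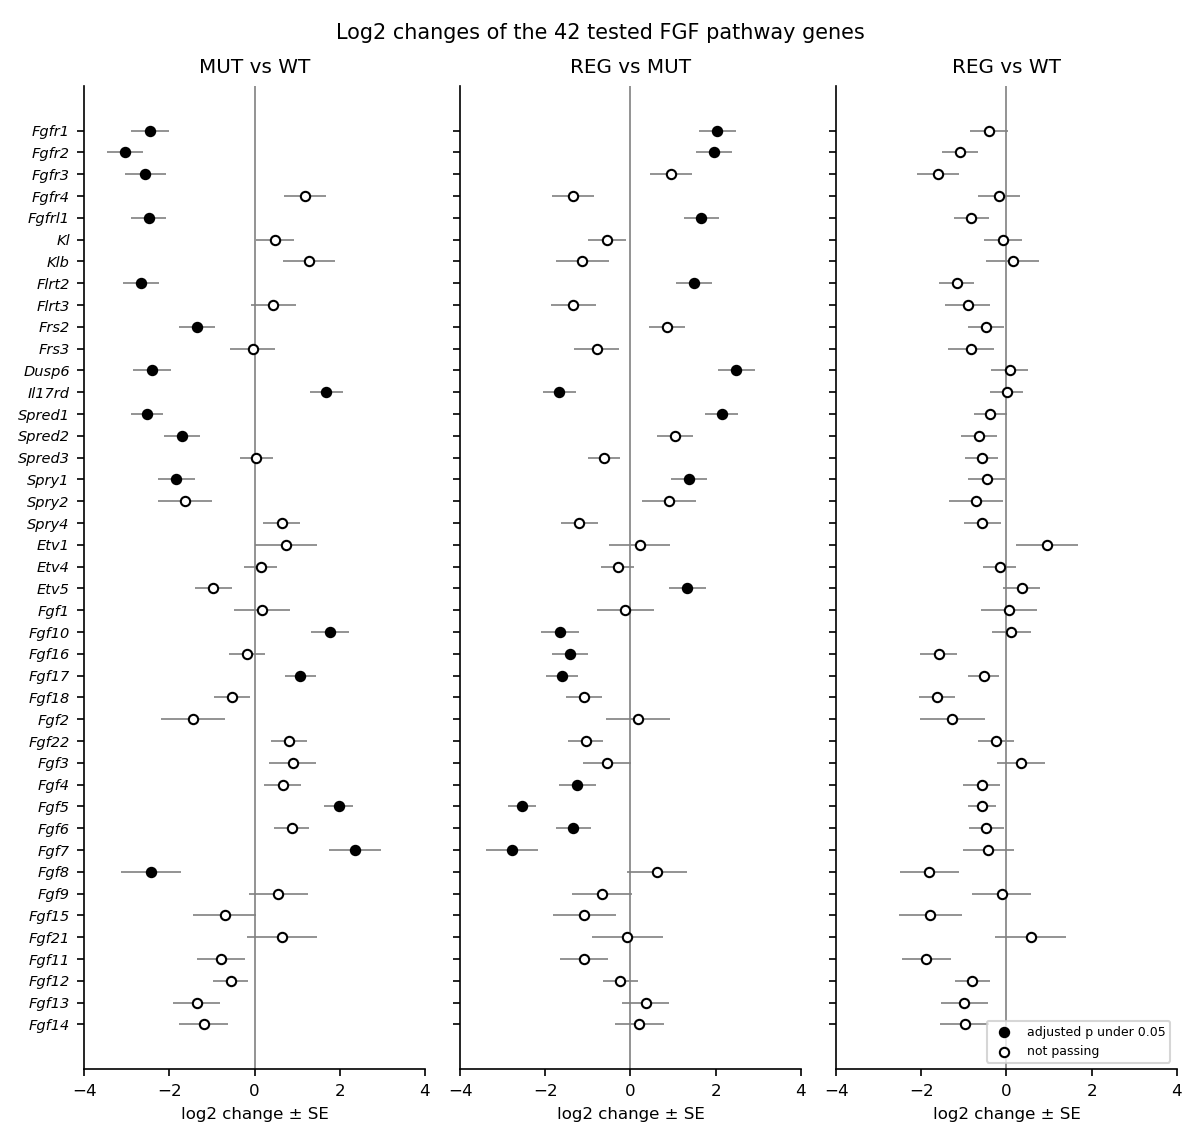
Log2 change with its standard error of the 42 tested genes, ordered by role from receptors at the top to intracellular FGFs at the bottom, in MUT against WT, REG against MUT and REG against WT. Filled points passed an adjusted p of 0.05; 16 genes did in each of the first and second comparisons and 0 in the last.

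The receptor tyrosine kinases Fgfr1, Fgfr2 and Fgfr3 and the receptor-like Fgfrl1, which binds FGFs but has no kinase domain, were all lower in MUT than in WT. Fgfr1 (chr8:25513654-25575718, + strand) read 87.7, 133 and 116 in the WT libraries, 14.7, 39.6 and 13.6 in MUT, and 69.9, 85.4 and 97.2 in REG. Every MUT library was below every other library, and MUT replicate 2 was the highest of the 3. The log2 change was −2.45 ± 0.44 in MUT against WT (adjusted p = 0.00409) and 2.04 ± 0.44 in REG against MUT (adjusted p = 0.00767). These calls held in 21 and 20 of 23 alternatives. Both were lost after background subtraction, and the second also with quantile scaling.

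Fgfr2, the receptor whose splice forms serve mesenchyme and epithelium, read 63.7, 117 and 95.8 in the WT libraries, 10.5, 10.5 and 10.3 in MUT, and 41.3, 25.1 and 69.2 in REG. The MUT values were nearly equal, and the REG values spread from below the lowest WT library to within the WT range. It had the largest decrease of any member, −3.05 ± 0.42 on the log2 scale (adjusted p = 0.0016), and rose by 1.96 ± 0.42 in REG against MUT (adjusted p = 0.0075). The call for the rise in Fgfr2 held in 19 of 23 alternatives. Total-read scaling, quantile scaling and background subtraction were among those that lost it for Fgfr2. In the deposited table its gene model runs over chr7:130162451-133123350 and 61 other genes lie within that span. The way reads shared with them were counted is not given in the sources used here.

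Fgfr3 (chr5:33721674-33737068, + strand) read 13.1, 27.3 and 23.2 in the WT libraries, 3.19, 2.95 and 3.21 in MUT, and 5.68, 3.42 and 13.2 in REG. Its decrease in MUT was −2.56 ± 0.49 (adjusted p = 0.00486). Although all 3 REG libraries were above all MUT libraries, the change of 0.96 ± 0.49 did not pass (adjusted p = 0.15). Background would make up 46.2% to 74.2% of the Fgfr3 reads in MUT. Fgfr4 read 0.698, 0.281 and 0.348 in the WT libraries, 1.95, 0.441 and 2.68 in MUT, and 0.413, 0.353 and 0.254 in REG. Its change of 1.18 ± 0.49 in MUT did not pass (adjusted p = 0.0875), and background would account for 36.8% to 191% of its reads there. Fgfr4 passed the filter only with its MUT libraries counted, so the direction of this change is a description.

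Fgfrl1 (chr5:108692382-108706924, + strand) read 12.8, 18.5 and 18.6 in the WT libraries, 3.18, 2.58 and 2.19 in MUT, and 8.89, 5.58 and 15.1 in REG. Its values in REG lay between those of the other groups in 2 of 3 libraries, and replicate 3 reached the WT range. The log2 change was −2.49 ± 0.41 in MUT (adjusted p = 0.00273) and 1.66 ± 0.41 in REG against MUT (adjusted p = 0.012). These calls held in 22 and 20 of 23 alternatives. Both were lost after background subtraction, and the second also with total-read scaling.

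Per kilobase of exon, the receptor level summed over Fgfr1 to Fgfr4 was 17.1 to 28.7 in WT, 3.51 to 5.56 in MUT and 11.7 to 18.5 in REG. Fgfr1 supplied 46.9% to 52.0% of it in WT, and Fgfr2 supplied 36.1% to 39.5%. In MUT replicates 1 and 3 the Fgfr1 share was 42.4% and 38.4%, with Fgfr4 at 15.7% and 21.2%. MUT replicate 2, the library with the least background, had 72.1% Fgfr1, 18.2% Fgfr2 and 2.24% Fgfr4. REG replicate 2 stood apart from the other REG libraries in the same direction, with 74.2% Fgfr1 and 20.8% Fgfr2 against 53.3% to 59.1% and 33.3% to 36.3%. The share of Fgfr4 was 0.388% to 0.972% in REG. These shares need no scaling between libraries, but background adds to each gene by its length, and its part in the MUT shares was not tested.

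**Figure D2:**
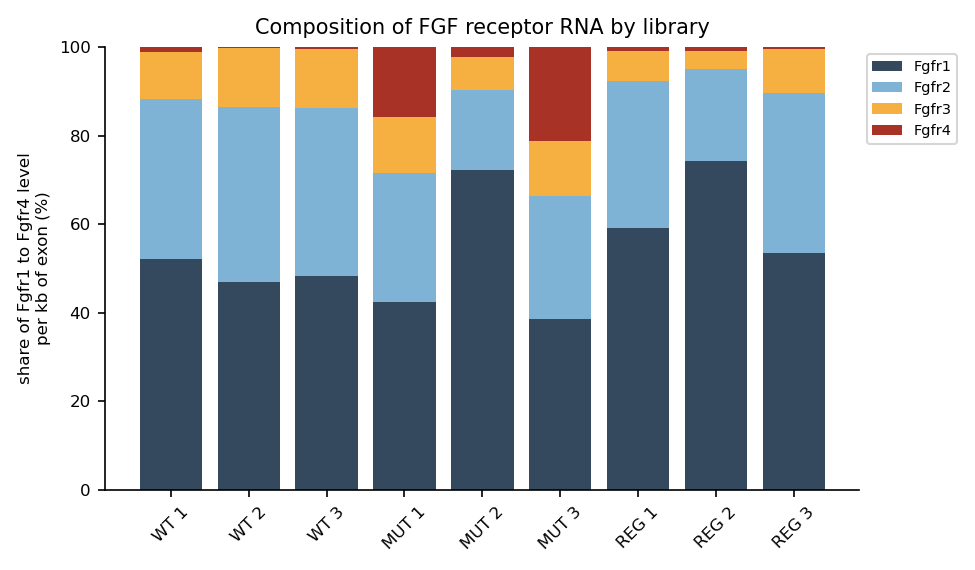
Share of Fgfr1, Fgfr2, Fgfr3 and Fgfr4 in their summed level per kilobase of exon, one stacked bar for each library, adding to 100%. Fgfr1 and Fgfr2 dominate in every WT library, MUT replicate 2 and REG replicate 2 have the largest Fgfr1 shares, and Fgfr4 is visible in MUT replicates 1 and 3.

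Kl, the Klotho co-receptor for endocrine FGFs, read 6.27, 4.37 and 6.87 in the WT libraries, 8.05, 8.74 and 7.82 in MUT, and 4.99, 10.7 and 2.94 in REG. The MUT libraries lay above the WT libraries, but the change of 0.49 ± 0.45 did not pass (adjusted p = 0.418), and REG overlapped both groups. Klb, its relative, ranged from 0.328 to 1.21 in WT, 1.54 to 3.18 in MUT and 0.254 to 2.85 in REG and was not called.

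Flrt2, a membrane protein of a family that binds FGF receptors, read 30.7, 52.3 and 50.7 in the WT libraries, 5.20, 10.01 and 5.17 in MUT, and 16.2, 14.8 and 28.5 in REG. The 3 groups did not overlap, with REG in between. Its log2 change was −2.68 ± 0.42 in MUT (adjusted p = 0.00239) and 1.501 ± 0.42 in REG against MUT (adjusted p = 0.0204). The second call was lost without MUT replicate 1, MUT replicate 3 or REG replicate 3. It was also lost with total-read or quantile scaling, in a fit of only the 2 groups and after background subtraction. Flrt3 had a far lower level, 0.903 to 2.64 in WT, 1.35 to 3.70 in MUT and 0.298 to 1.49 in REG, and was not called.

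Frs2, the docking adapter of the activated receptor, read 16.9, 20.4 and 15.4 in the WT libraries, 6.004, 10.99 and 4.37 in MUT, and 8.07, 15.1 and 15.7 in REG. It was lower in MUT by −1.35 ± 0.42 (adjusted p = 0.0332), and its change in REG against MUT, 0.87 ± 0.42, did not pass (adjusted p = 0.134). The call in MUT was lost without any 1 of the WT libraries, or without MUT replicate 1 or 3. It was also lost with total-read or quantile scaling, with a pseudocount 10 times lower and after background subtraction. The related Frs3 stayed between 0.171 and 1.86 in all 9 libraries and was not called.

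**Figure D3:**
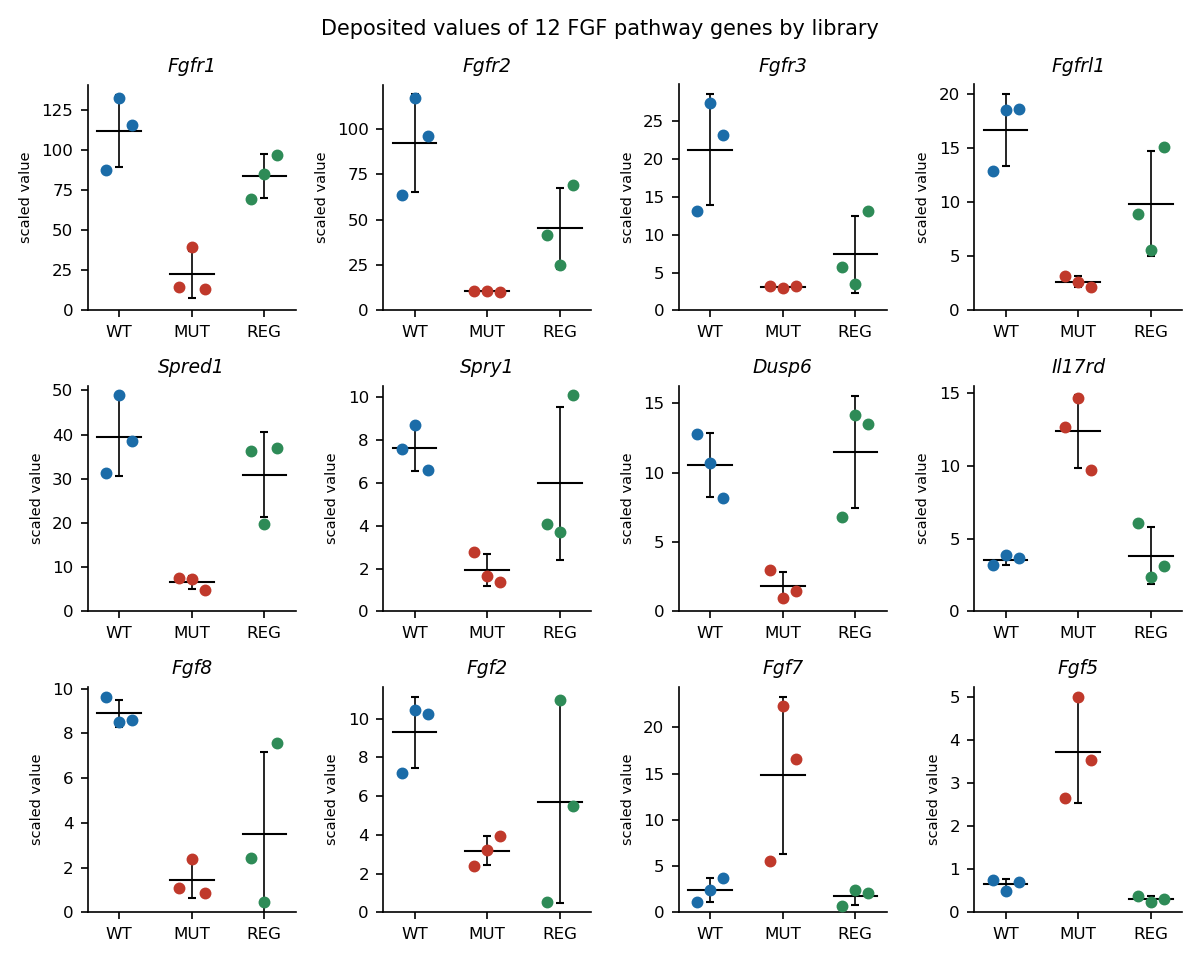
Deposited scaled values of 12 genes in each library, on linear axes from 0, with the group mean as a line and the SD as a bar. Fgfr1, Fgfr2, Fgfrl1, Spred1 and Dusp6 are lowest in all 3 MUT libraries, and Fgf7, Fgf5 and Il17rd are highest there.

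Among the feedback inhibitors, 4 of 8 were lower in MUT than in WT and 1 was higher, beside 14.6% and 20.5% of all genes. With total-read scaling 1 was lower and 2 were higher, beside 2.89% and 38.7% of all genes. Background subtraction gave the same 1 and 2, beside 3.52% and 14.1%. With trimmed-mean scaling 5 were lower and 0 higher, beside 22.6% and 9.78%. Spred1, which restrains Ras-MAPK signalling at the level of Ras and Raf, read 31.2, 48.9 and 38.5 in the WT libraries, 7.65, 7.23 and 4.89 in MUT, and 36.2, 19.8 and 36.9 in REG. The log2 change was −2.52 ± 0.38 in MUT (adjusted p = 0.00208) and 2.14 ± 0.38 in REG against MUT (adjusted p = 0.00374). The second call was lost after background subtraction. Spred1 lies at chr2:117121374-117182279 on the + strand, and background would account for 17.5% to 38.5% of its MUT reads.

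Dusp6, the phosphatase that inactivates ERK, read 12.8, 10.7 and 8.17 in the WT libraries, 2.96, 0.998 and 1.44 in MUT, and 6.84, 14.2 and 13.5 in REG. All MUT libraries were below the lowest value of the other groups, and the REG and WT libraries overlapped. The log2 change was −2.41 ± 0.44 in MUT (adjusted p = 0.00425) and 2.49 ± 0.44 in REG against MUT (adjusted p = 0.00374). The call against WT was lost with total-read scaling (−1.33, adjusted p = 0.0787) and after background subtraction (−2.01, adjusted p = 0.0664). The Dusp6 level rested on 9 to 181 estimated reads in MUT, of which background would supply 35.03% to 64.3%.

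Spry1, a Sprouty inhibitor of receptor tyrosine kinase signalling, read 7.59, 8.70 and 6.60 in the WT libraries, 2.757, 1.65 and 1.38 in MUT, and 4.10, 3.73 and 10.1 in REG. It was lower in MUT by −1.84 ± 0.43 (adjusted p = 0.0113) and higher in REG than in MUT by 1.37 ± 0.43 (adjusted p = 0.0321). That second call was lost in 15 of 23 alternatives, among them leaving out REG replicate 3, its highest library. The first was lost without WT replicate 2, with MUT replicate 2 as the only MUT library, with total-read scaling (−0.74, adjusted p = 0.217) and after background subtraction (−1.23, adjusted p = 0.157). Spred2, a second Spred inhibitor, read 7.76, 9.07 and 7.44 in the WT libraries, 2.33, 1.54 and 3.07 in MUT, and 5.76, 2.74 and 7.95 in REG. Its change was −1.70 ± 0.42 in MUT (adjusted p = 0.0142) and 1.06 ± 0.42 in REG against MUT (adjusted p = 0.0767), and the first of these was lost under the same 4 alternatives, at −0.58 with total-read scaling (adjusted p = 0.379). Spry1 overlaps a gene on the other strand, and the strand use of the counting is not given in the sources used here.

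Il17rd, also called Sef, an inhibitor of FGF receptor signalling, went the other way. It read 3.16, 3.87 and 3.63 in the WT libraries, 12.7, 14.7 and 9.71 in MUT, and 6.04, 2.37 and 3.10 in REG. Every MUT library was above every other library, a log2 change of 1.68 ± 0.39 against WT (adjusted p = 0.0104) and −1.67 ± 0.39 in REG against MUT (adjusted p = 0.00969), both lost with trimmed-mean scaling. Background would account for 13.9% to 31.4% of its MUT reads. Spry4, a further Sprouty, read 2.07, 4.55 and 2.98 in the WT libraries, 3.76, 5.77 and 5.59 in MUT, and 2.04, 1.08 and 3.18 in REG. Neither of its changes passed, at 0.64 ± 0.43 (adjusted p = 0.273) and −1.20 ± 0.43 (adjusted p = 0.0518). Spry2 read 2.35 to 2.44 in WT, 0.247 to 1.26 in MUT and 0.198 to 2.63 in REG and did not pass in MUT against WT (−1.62 ± 0.64, adjusted p = 0.0717). Spred3 ranged from 0.935 to 3.18 over all libraries and was not called.

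Within each library, per kilobase, Il17rd stood at 0.0704 to 0.127 times Dusp6 in WT, 1.22 to 4.19 times in MUT and 0.0478 to 0.252 times in REG. The ratio of Spry4 to Spry1 was 0.167 to 0.320 in WT, 0.834 to 2.47 in MUT and 0.177 to 0.304 in REG. Neither ratio overlapped between MUT and the other groups. Each sets a gene with a higher mean in MUT over a gene with a lower mean there. The ratios of Dusp6, Spred1 and Spry1 to Fgfr1, taken as well, did overlap. Dusp6 stood at 0.222 to 0.460 times Fgfr1 in WT, 0.080 to 0.636 in MUT and 0.308 to 0.522 in REG. For Spred1 the ranges were 0.483 to 0.537, 0.266 to 0.759 and 0.337 to 0.754, and for Spry1 0.193 to 0.294, 0.142 to 0.638 and 0.148 to 0.353. All these ratios are free of the scaling factor, and background enters numerator and denominator by gene length.

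The target transcription factors gave 1 call. Etv5, an ETS factor induced by FGF signalling, read 3.29, 4.04 and 4.61 in the WT libraries, 2.40, 2.17 and 1.16 in MUT, and 2.91, 8.69 and 5.37 in REG. Its increase in REG against MUT was 1.33 ± 0.44 (adjusted p = 0.0373) and was lost in 19 of 23 alternatives, while the change of −0.97 ± 0.44 in MUT against WT did not pass (adjusted p = 0.11). Etv1, an ETS factor of the same subfamily, read 3.20, 3.65 and 4.18 in the WT libraries, 8.60, 2.69 and 10.8 in MUT, and 3.91, 26.003 and 3.87 in REG. It was not called, and REG replicate 2 stood far above the other 8 libraries. Etv4 stayed between 0.593 and 1.58 and was not called.

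Among the secreted ligands that act locally, 4 of 14 tested were higher in MUT than in WT and 1 was lower, beside 20.5% and 14.6% of all genes. The higher count was 7 of 13 with total-read scaling, beside 38.7% of all genes. Among those 7, Fgf10, Fgf17 and Fgf20 passed the filter there only with their MUT libraries counted. It was 2 of 14 with quantile scaling (8.98% of all genes) and 1 of 14 with trimmed-mean scaling (9.78%). Fgf7, which signals from mesenchyme to epithelial Fgfr2, read 1.14, 2.37 and 3.75 in the WT libraries, 5.58, 22.3 and 16.5 in MUT, and 0.663, 2.38 and 2.12 in REG. The MUT libraries were all above the others, with replicate 1 the lowest of them. Its log2 change was 2.36 ± 0.61 against WT (adjusted p = 0.0161) and −2.78 ± 0.61 in REG against MUT (adjusted p = 0.0079). Without WT replicate 1, WT replicate 2 or MUT replicate 3, or with trimmed-mean scaling, the call against WT was lost. Fgf7 (chr2:126034658-126091185) overlaps Fam227b on the other strand, and background would supply 2.70% to 19.2% of its MUT reads.

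Fgf5, the ligand that ends the growth phase of hair follicles, read 0.757, 0.501 and 0.698 in the WT libraries, 2.65, 5.005 and 3.54 in MUT, and 0.382, 0.247 and 0.320 in REG. The groups were separate, and each REG library was below each WT library. The log2 change was 1.98 ± 0.34 in MUT against WT (adjusted p = 0.00321) and −2.55 ± 0.34 in REG against MUT (adjusted p = 0.00151). Fgf5 lies at chr5:98254184-98277030, and background would account for 9.40% to 31.3% of its MUT reads.

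Fgf10, a mesenchymal ligand of limb and lung budding, read 0.373, 0.350 and 0.339 in the WT libraries, 1.31, 1.60 and 4.15 in MUT, and 0.160, 0.767 and 0.432 in REG. It was higher in MUT by 1.77 ± 0.45 (adjusted p = 0.015) and lower in REG than in MUT by −1.65 ± 0.45 (adjusted p = 0.0181). Fgf17, a member of the Fgf8 subfamily, read 0.268, 0.264 and 0.317 in the WT libraries, 1.08, 0.499 and 1.68 in MUT, and 0.102, 0.0784 and 0.0628 in REG. Its 6 WT and REG libraries were all below the filter minimum of 0.367, so the log2 changes of 1.08 ± 0.37 in MUT against WT and −1.61 ± 0.37 in REG against MUT follow in direction from its entry through MUT and are given with no test. Background would supply 30.8% to 117% of the Fgf10 reads and 28.3% to 78.0% of the Fgf17 reads in MUT. The Fgf10 calls were lost without WT replicate 2 or 3 against WT, and without MUT replicate 3 or REG replicate 1 against MUT. Both were lost with quantile or trimmed-mean scaling. Fgf10 was not called after background was subtracted, and Fgf17 was then below the filter.

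Fgf8, a ligand active in craniofacial development, read 9.60, 8.51 and 8.58 in the WT libraries, 1.10, 2.40 and 0.883 in MUT, and 2.43, 0.458 and 7.57 in REG. All WT libraries were above all others, while REG spread from below the lowest MUT library to near WT. The log2 change was −2.43 ± 0.70 in MUT against WT (adjusted p = 0.0239) and 0.62 ± 0.70 in REG against MUT (adjusted p = 0.521). The first call was lost when WT replicate 1, 2 or 3, or MUT replicate 1 or 3, was left out. It was also lost with total-read scaling and after background subtraction.

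Fgf2, a widely used growth factor of mesenchymal cells, read 7.19, 10.5 and 10.3 in the WT libraries, 2.41, 3.22 and 3.92 in MUT, and 0.553, 10.97 and 5.51 in REG. WT and MUT did not overlap, but the change of −1.45 ± 0.76 did not pass (adjusted p = 0.162), and the REG libraries spread from below the lowest MUT library to above the highest WT library. Its span overlaps Nudt6 on the other strand. Fgf1 read 1.88, 3.82 and 2.07 in the WT libraries, 3.11, 2.10 and 3.50 in MUT, and 5.51, 0.509 and 4.65 in REG, with no call.

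Fgf4, Fgf6 and Fgf16 were called in REG against MUT. Fgf6, a ligand known from skeletal muscle, read 1.09, 1.19 and 1.70 in the WT libraries, 2.57, 3.06 and 2.48 in MUT, and 0.393, 0.728 and 1.73 in REG, a change of −1.34 ± 0.41 (adjusted p = 0.0284). Fgf16, a member of the Fgf9 subfamily, read 1.60, 1.28 and 1.45 in the WT libraries, 1.65, 1.42 and 0.761 in MUT, and 0.119, 0.0449 and 0.698 in REG, a change of −1.42 ± 0.43 (adjusted p = 0.027). Fgf4, a ligand of early embryo and limb, read 0.466, 0.491 and 0.313 in the WT libraries, 1.64, 0.299 and 1.08 in MUT, and 0.0745, 0.104 and 0.327 in REG, a change of −1.25 ± 0.44 (adjusted p = 0.0482). Its groups overlapped, and background would exceed its reads in MUT replicate 2, at 295%. Fgf4 passed the filter only with its MUT libraries counted, so its call and direction are a description. Leaving out single libraries ended each of these calls: MUT replicate 1, 2 or 3 or REG replicate 1 for Fgf6, MUT replicate 1 or 2 or REG replicate 1 or 2 for Fgf16, and any of 7 libraries for Fgf4.

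Of the remaining secreted ligands, Fgf3 ranged from 0.588 to 5.04, Fgf9 from 0.529 to 5.85, Fgf18 from 0.0282 to 1.26 and Fgf22 from 0.00932 to 1.24 over the 9 libraries, and none was called. Fgf20, below the filter under the deposited scaling, reached at most 1.02. The endocrine ligands were not called either. Fgf15 read 2.43 to 4.57 in WT and 1.54 to 2.25 in MUT, and in REG it was 4.25 in replicate 3 and at most 0.179 in the others. Fgf21 was 4.84 in REG replicate 2 and at most 0.889 in any other library.

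The intracellular FGFs, which bind sodium channels and are not secreted, gave no call. Fgf12 read 4.55, 3.47 and 2.12 in the WT libraries, 3.07, 1.46 and 1.96 in MUT, and 1.51, 1.26 and 2.50 in REG. Fgf13 read 4.09, 6.57 and 4.35 in the WT libraries, 1.80, 1.86 and 1.45 in MUT, and 0.671, 5.18 and 2.86 in REG. Its MUT libraries lay below all WT libraries, with a change of −1.35 ± 0.55 (adjusted p = 0.0818). Fgf14 read 3.49, 8.59 and 5.49 in the WT libraries, 1.20, 6.16 and 1.29 in MUT, and 2.27, 2.13 and 3.63 in REG, and MUT replicate 2 stood apart from the other MUT libraries. Fgf11 ranged from 1.86 to 3.05 in WT, 0.615 to 1.84 in MUT and 0.05996 to 1.502 in REG.

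The order of the secreted ligands per kilobase of exon differed between the groups. Fgf8 was the highest in all 3 WT libraries, at 6.31 to 7.11, and made up 42.9% to 49.5% of the summed ligand level. Fgf7 was the highest in all 3 MUT libraries, at 1.72, 6.86 and 5.09. In REG it was Fgf8 in replicates 1 and 3, at 1.80 and 5.61, and Fgf21 in replicate 2, at 5.09. Set against Fgfr2 in the same library, Fgf7 stood at 0.0569 to 0.124 times in WT, 1.68 to 6.78 times in MUT and 0.0511 to 0.301 times in REG. This ratio sets a gene called higher in MUT over a gene called lower there, so its separation is a description. The value of Fgfr2 does not separate its splice forms, and background would account for 18.4% to 32.3% of its MUT reads.

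The deposited scaling bears on the direction of these counts. With values scaled to total reads, the median of all genes in MUT against WT moved from 0.18 to 1.11. The members then split 12 higher and 6 lower of 41, beside 38.7% and 2.89% of all genes. In REG against MUT they split 3 higher and 13 lower, beside 3.24% and 37.7%. Among the 12, Fgf10, Fgf17 and Fgf20 passed the filter at this scaling only with their MUT libraries counted, so their direction is a description. The 6 lower in MUT were Fgfr1, Fgfr2, Fgfr3, Fgfrl1, Flrt2 and Spred1. Under quantile scaling the split was 3 higher and 12 lower in MUT against WT (8.98% and 8.87% of all genes), and 3 and 4 in REG against MUT (6.61% and 8.15%). Trimmed-mean scaling gave 1 higher and 15 lower (9.78% and 22.6%), and 11 higher and 3 lower in REG against MUT (25.9% and 11%). With the filter on low values 10 times stricter, 21 members were tested. Of these, 2 were higher and 11 lower in MUT against WT (7.95% and 34.8%). In REG against MUT, 7 were higher and 2 lower (24.3% and 7.62%). The 2 that were high in MUT, Fgf7 and Il17rd, passed this filter only with their MUT libraries counted. Their direction here is a description.

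After the expected background was subtracted from every gene, 4 members of 39 were higher in MUT than in WT, beside 14.1% of all genes, and 4 were lower, beside 3.52%. The lower ones were Fgfr2, Fgfr3, Flrt2 and Spred1, and the higher ones Fgf5, Fgf7, Il17rd and Spry4. In REG against MUT, Dusp6 was higher (3.38% of all genes), and Fgf5, Fgf6, Fgf7, Fgf16, Il17rd and Spry4 were lower (13% of all genes). Fgfr2 was lower in MUT by −1.83 ± 0.42 with total-read scaling (adjusted p = 0.00768) and by −2.01 ± 0.49 after subtraction (adjusted p = 0.0203), and Spred1 by −1.32 ± 0.38 and −1.54 ± 0.47 (adjusted p = 0.0202 and 0.0464). Fgf5 was higher in MUT by 3.02 ± 0.34 with total-read scaling (adjusted p = 0.000385). After subtraction its change was 3.04 ± 0.44, but Fgf5 then passed the filter only with its MUT libraries counted. Its direction after subtraction, in both comparisons, is therefore a description and is given with no test. No called member change reversed sign under the alternatives that tested it, which were 20 for Fgf4, 21 for Fgf17, 22 for Fgf5, Fgf6, Fgf10 and Fgf16 and 23 for the others.

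**Figure D4:**
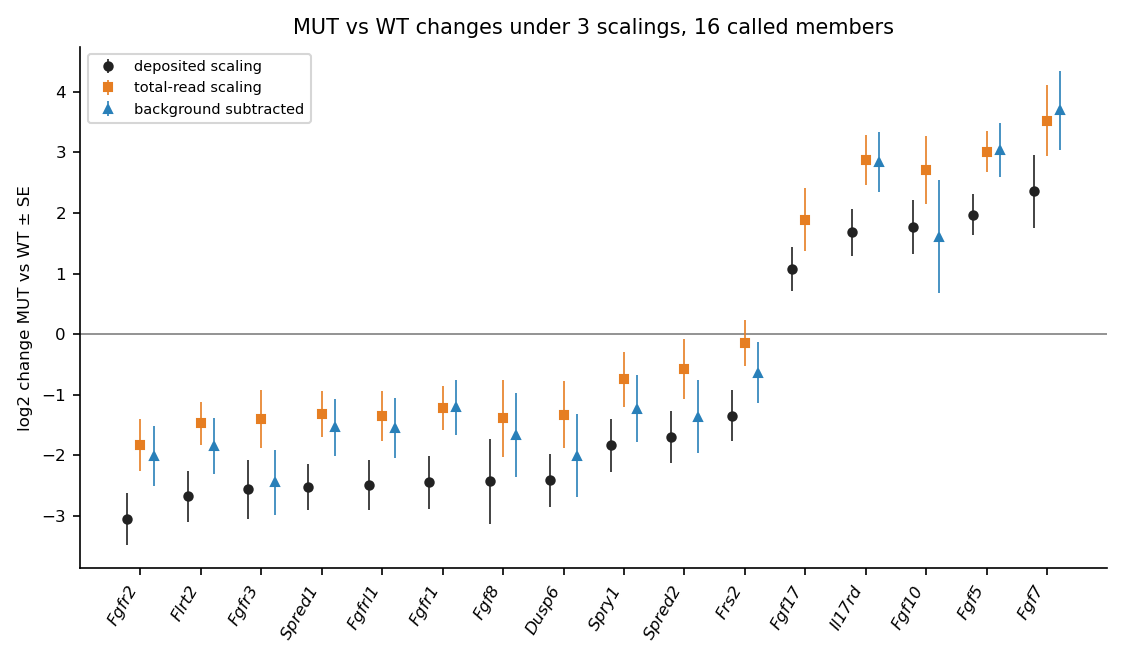
Log2 change in MUT against WT with its standard error for the 16 called genes, under the deposited scaling, total-read scaling and background subtraction. The 11 genes lower under the deposited scaling are below 0 and the 5 higher genes above 0 under each scaling that tested them, and Frs2 comes nearest to 0.

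**Figure D5:**
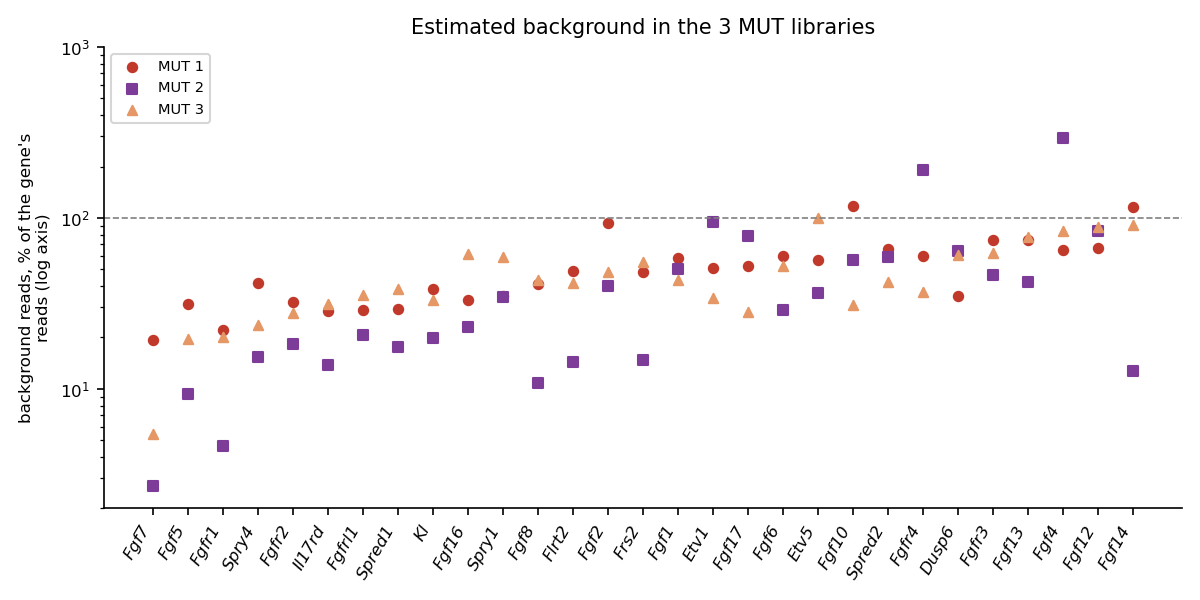
Expected background as a percent of estimated reads in the 3 MUT libraries, for the 29 genes whose value is given in every library, on a log axis with a dashed line at 100%, ordered by the median of the libraries. Of these, Fgf7, Fgf5 and Fgfr1 are at the left with the least background, and Fgf4, Fgf12 and Fgf14 at the right.

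MUT replicate 2 had the least background of its group, at 7.86% of reads, and also the lowest depth, and its deposited column name is unlike those of the other MUT libraries, which the labels do not explain. With it as the only MUT library, 6 members were called in MUT against WT: Fgf5 and Fgf7 higher, beside 8% of all genes, and Dusp6, Fgfr2, Fgfrl1 and Spred1 lower, beside 5.96%. The log2 change of Fgfr2 was then −3.05 (adjusted p = 0.0301) and that of Fgf7 was 3.14 (adjusted p = 0.0424). That single library was assumed to vary like those of the other groups. Calls of other members, among them Il17rd, Flrt2, Frs2, Fgf8 and Fgf10, were lost in this fit. Most lists of lost calls above leave this fit out.

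The REG libraries were not alike, and the deposited column names of replicates 1 and 2 have another form than that of replicate 3, which the labels do not explain; the names of replicates 1 and 3 both carry the number 2. Without REG replicate 3, 6 members were lower in REG than in WT, beside 4.07% of all genes, and none was higher, beside 1.41%. They were Fgf8, Fgf11, Fgf15, Fgf16, Fgf18 and Fgfr3. With REG replicate 3 as the only REG library, 0 members were called against WT (0% of all genes), and 10 were higher and 7 lower than in MUT, beside 13.7% and 18.1%. With all 3 REG libraries the 95% interval of the log2 change in REG against WT ran from −1.40 to 0.59 for Fgfr1, from −2.04 to −0.15 for Fgfr2, from −1.23 to 0.47 for Spred1 and from −0.91 to 1.06 for Dusp6. These intervals are not adjusted for the number of genes. A p that misses the threshold does not show that the groups were equal.

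Genes around the receptors were taken from 3 lists. Of 21 genes of the Ras-MAPK and PI3K chain, 12 were lower in MUT than in WT and 0 higher, beside 14.6% and 20.5% of all genes, with a median of −1.54 against 0.18 for all genes. Mapk3, the kinase ERK1, changed by −1.71 ± 0.33, Sos2, a Ras exchange factor, by −1.91 ± 0.38, and Ptpn11, the phosphatase SHP2, by −1.90 ± 0.43. In REG against MUT, 6 were higher and 0 lower, beside 11.8% and 24.8% of all genes. The count in MUT against WT depended on the scaling. With total-read scaling 0 of 21 were called (median −0.36 against 1.11 for all genes), beside 2.89% of all genes lower and 38.7% higher. Background subtraction also gave 0, beside 3.52% and 14.1%. With quantile scaling 1 was lower (8.87% of all genes), and with trimmed-mean scaling 15 were lower (22.6%).

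Of 24 heparan sulfate cofactors and enzymes, 12 were lower in MUT and 3 higher, beside the same shares of all genes, with the heparan sulfate endosulfatase Sulf2 at −3.52 ± 0.46, the syndecan Sdc2 at −2.75 ± 0.39 and perlecan, Hspg2, at −3.05 ± 0.45. In REG against MUT, 9 were higher and 3 lower, beside 11.8% and 24.8% of all genes. With total-read scaling, 4 were lower and 4 higher in MUT (2.89% and 38.7% of all genes), and with trimmed-mean scaling 15 and 2 (22.6% and 9.78%). Of 14 other ERK feedback and response genes, 5 were lower and 1 higher in MUT, beside 14.6% and 20.5% of all genes. Among the lower were the Ras GTPase activator Rasa1 at −2.21 ± 0.33 and the immediate early gene Egr1 at −2.51 ± 0.498. Against MUT, 5 were higher and 2 lower in REG, beside 11.8% and 24.8% of all genes. With total-read scaling 0 were lower and 2 higher in MUT, beside 2.89% and 38.7% of all genes. The list's median in MUT against WT then went from −0.93 to 0.11, while that of all genes went from 0.18 to 1.11. With trimmed-mean scaling 7 were lower and 0 higher, beside 22.6% and 9.78%.

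In the authors' deposited table, 14 of the 43 members had an FDR under 0.05 in WT against MUT, 10 of them higher in WT, beside 25.5% of all genes. For REG against MUT that table gives 15 members, 7 of them higher in REG, beside 41.5% of all genes, and for WT against REG it gives 0. Its smallest FDR among the members was 0.00175 for Fgfr2 in WT against MUT, with a log2 ratio of 3.14 in the authors' deposited table.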

How the data were processed

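RNA from the coronal suture was sequenced with single-end reads of 75 cycles, per the labels' protocols, in 9 libraries of 3 groups. The submitters' processing notes name STAR 2.6.1d, Partek and mm10. How reads were counted, with which annotation and strand setting, is not given in the sources used here. A matrix the authors deposited holds a signal for each gene and library. Its values read as (estimated reads + 1) times a library factor, with the 75th percentile near 2.8 in every library, and were not whole reads. The deposited gene table holds the authors' p-values with FDR, their log2 ratios, and other sums and means for each gene. Matrix columns were matched to that table on 4 statistics for 43644 of 43644 genes.

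All 9 libraries entered 1 limma 3.58.1 fit in R 4.3.3 on log2(value + 0.367), with group as the only term, over the 29107 genes for which 3 or more libraries reached 0.367, and p-values are two-sided. An exact permutation test of 3 against 3 cannot go below p = 0.1 and was not used. Exon lengths came from GENCODE M21 (GRCm38), and promoter sequences from RefSeq (GRCm38.p6). The background was the receptor genes' median reads per kilobase times a gene's exon length. Alternatives were other scalings, filters, pseudocounts and fits, a replicate block, each library left out, and background subtraction. The trimmed mean was coded for this work. The scripts were tested on simulated data. Values in every library are given for Twist1, every receptor, each member called in at least 1 comparison and up to 8 further members of largest mean; the remaining members are given by ranges and counts, and each pathway list with its 3 genes of smallest p. The members, lists and alternatives were chosen with earlier results of these data known. The software was Python 3.11.15 with matplotlib 3.10.9, scipy 1.17.1, pandas 2.3.3 and numpy 2.4.6.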

Additional observations from a re-analysis of the deposited data

How the results depend on the processing

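In MUT against WT, 16 members were called, 5 higher and 11 lower, beside 20.5% and 14.6% of all genes. Array quality weights gave 28, 12 higher and 16 lower (34.2% and 26.3%). Background subtraction gave 8, 4 higher and 4 lower (14.1% and 3.52%). Leaving out 1 library gave 9 to 20. The 9, 2 higher and 7 lower, came without WT replicate 2 (9.06% and 6.43%). The 20, 8 higher and 12 lower, came without MUT replicate 2 (20.1% and 13.5%). Among those 8 higher, Fgf4, Fgf17, Fgf22 and Fgfr4 passed the filter only with their MUT libraries counted. They were also among the 12 higher with array quality weights, and their direction in both settings is a description. In REG against MUT, 16 were called, 8 higher and 8 lower, beside 11.8% and 24.8% of all genes. Quantile scaling gave 3 higher and 4 lower (6.61% and 8.15%), and a minimum 10 times higher 7 and 2 (24.3% and 7.62%). A fit of only the 2 groups gave 5 and 4 (5.92% and 13.6%), and background subtraction 1 and 6 (3.38% and 13%). Leaving out 1 library gave 11 to 20, with 20, 11 higher and 9 lower, without REG replicate 2 (14.7% and 25.5%). In REG against WT, 0 were called, and leaving out 1 library gave 0 to 6. The 6, all lower, came without REG replicate 3, beside 4.07% of all genes. The cause of these differences was not tested. With a replicate block the counts were 15 (17.2% of all genes higher and 12.9% lower), 12 (10.4% and 21.8%) and 0. Same-numbered libraries of different groups deviated with correlations of −0.196 to 0.101. Of the best matches, 3 of 18 shared a number, so the numbers were not taken as pairs. No called value was reversed by the alternatives that tested it, 20 to 23 for each. Fgfr2, Spred1 and Fgf5 in MUT against WT, and Dusp6, Fgf5 and Fgf7 in REG against MUT, stayed called under every alternative that tested them. Under some alternatives a gene passed the filter only with its MUT libraries counted. Fgf7 did so under the stricter filter, and Fgf5 did so after background subtraction. The depth of MUT replicate 2, 2945636 estimated reads, limits low genes there, where 1 read is worth 0.0998.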
